A study of Mus musculus with 2 samples.

Results

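The NR4A nuclear receptors and a set of Krüppel-like factors (KLFs) were examined in tumour-infiltrating M-MDSCs, the monocytic myeloid-derived suppressor cells, of mice fed a normal-salt diet (NSD) or a high-salt diet (HSD). The members were Nr4a1, Nr4a2, Nr4a3, Klf2, Klf3, Klf4, Klf6, Klf10 and Klf13, that is 9 of the 20653 genes with a named probe on the array, and they were taken with every non-control probe annotated to one of their RefSeq transcripts, 10 probes in all. Female mice, whose strain is spelled BABL/c in the labels, had received 1000000 4T1 mammary carcinoma cells under the skin of the left armpit after 1 day without food. NSD mice then ate chow with 0.4% NaCl and drank tap water, and HSD mice ate chow with 4% NaCl and drank water with 1% NaCl, both for 16 days. Tumour-bearing mice were thus the controls as well. M-MDSCs were taken out of the tumours with a bead-based isolation kit, equal cell numbers from the mice of a group were mixed, and the RNA of each mixture was read on 1 single-colour Cy3 microarray. There was 1 array per diet and hence no replicate, so no test was possible, and every difference below is a difference between 2 arrays. In RNA from a mixture of cells, fewer cells of a type and less RNA per cell cannot be told apart.

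NR4A proteins are orphan nuclear receptors that act without a known classical ligand, and their genes belong to the immediate-early class that is transcribed within minutes to hours of a cAMP, calcium or Toll-like receptor signal. In myeloid cells Nr4a1 is best known as the factor that Ly6C-low patrolling monocytes need for their development. KLFs are zinc finger proteins that bind GC-rich and CACCC sequences, and members of the family hold leukocytes in a resting state, steer monocyte differentiation, or relay TGF-β signals.

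None of the 8 members with a measurable signal differed by 1.5-fold or more between the diets. The largest differences were those of Klf10, 1.43-fold lower on the HSD array, and Nr4a1, 1.32-fold lower. Klf6 and Klf3 were the only members that were higher with HSD by this scaling, 1.27-fold and 1.23-fold. Klf2, Klf13, Klf4 and the brighter probe of Nr4a2 lay within 1.14-fold of the NSD level, and Nr4a3 did not rise above background on either array. Of the 16316 genes that either array detected well above background, 9.86% were higher with HSD by 1.5-fold or more, against 0 members, and 10.3% were lower by as much, again against 0 members. Of all genes past this threshold 48.9% were higher with HSD, a share that became 38.5% when the arrays were scaled by cyclic loess. The median log2 fold change (HSD minus NSD) was -0.15 over the measured members and 0.05 over all genes, and the median size of the change, whatever its direction, was 0.25 and 0.28.

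Signals are given as Agilent processed signals in intensity units with the error that the scanner software assigned to the spot. Fold changes were taken after the log2 signals of each array had been set against its 75th percentile, which was 252.2 for NSD and 232.9 for HSD. For a single bright spot the software errors of both arrays combine to an error of 0.20 on the log2 fold change. A separate view of the error within an array came from probes printed on several spots, where the median SD of the log2 signal was 0.169 for signals from 5 to 50 and 0.060 for signals from 500 to 5000. Neither error holds any of the variation between mice. By the software error, 4 of the 9 measured probes of the members changed by more than 1 error, and 1 of them, that of Klf10, by more than 2. No spot of a member was saturated or flagged as an outlier.

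**Figure D1:**
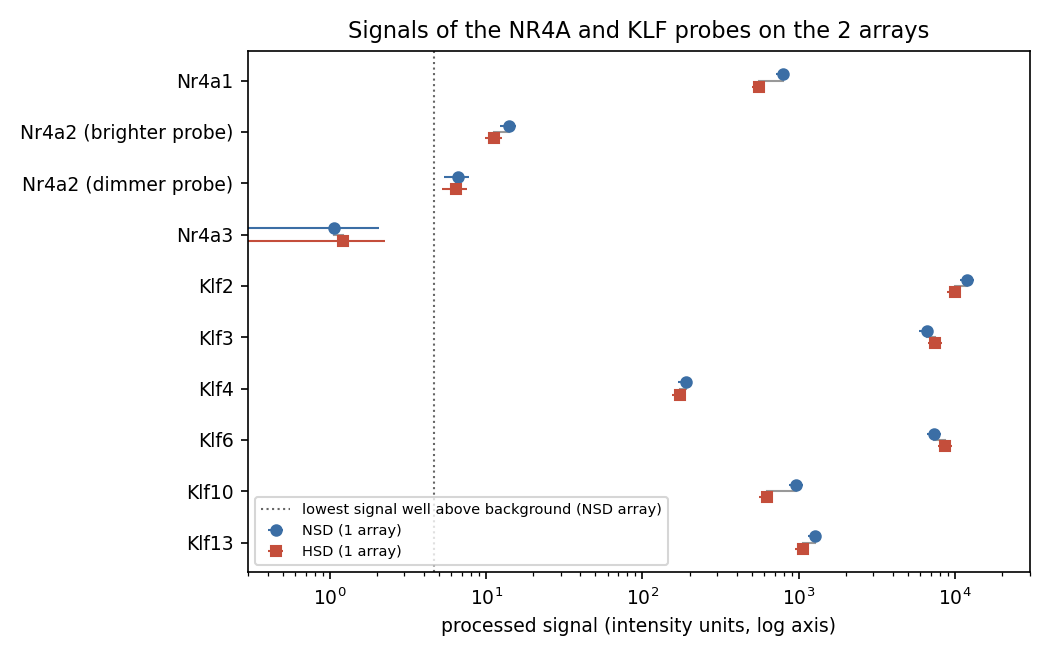
Processed signal of each NR4A and KLF probe (intensity units, log axis) with NSD (blue circles) and HSD (red squares). Bars are the software error of the signal, those of Nr4a3 running past the left edge, and the dotted line is the lowest signal called well above background on the NSD array (4.61). The signals are unscaled. Klf10 (962.7 with NSD, 621.9 with HSD) and Nr4a1 (790.6 with NSD, 554.6 with HSD) lie furthest apart on the arrays, and Nr4a3 lies left of the line on both.

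The NR4A genes were taken first. Their promoters are shown because the inducibility of this family is usually assigned to cAMP response elements close to the start site. The RefSeq promoter sequences of mouse assembly GRCm38.p6 held 8 of the 9 members, without Klf10. The 250 bases before the annotated start are given 5′ to 3′ on the strand of the gene, at chr15:101266596-101266845 on the plus strand for Nr4a1, chr2:57124004-57124253 on the minus strand for Nr4a2 and chr4:48045055-48045304 on the plus strand for Nr4a3. Capitals mark TGACG, the core of the cAMP response element, read on either strand.
Nr4a1: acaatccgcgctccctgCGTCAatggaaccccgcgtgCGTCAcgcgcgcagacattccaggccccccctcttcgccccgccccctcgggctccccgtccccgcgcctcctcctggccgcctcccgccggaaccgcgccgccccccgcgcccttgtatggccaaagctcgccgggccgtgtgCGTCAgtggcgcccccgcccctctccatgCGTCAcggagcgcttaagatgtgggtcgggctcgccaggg
Nr4a2: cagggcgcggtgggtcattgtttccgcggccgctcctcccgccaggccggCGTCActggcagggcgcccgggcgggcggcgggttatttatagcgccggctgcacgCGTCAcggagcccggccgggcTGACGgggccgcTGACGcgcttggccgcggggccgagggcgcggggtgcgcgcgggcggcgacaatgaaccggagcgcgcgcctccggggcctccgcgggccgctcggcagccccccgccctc
Nr4a3: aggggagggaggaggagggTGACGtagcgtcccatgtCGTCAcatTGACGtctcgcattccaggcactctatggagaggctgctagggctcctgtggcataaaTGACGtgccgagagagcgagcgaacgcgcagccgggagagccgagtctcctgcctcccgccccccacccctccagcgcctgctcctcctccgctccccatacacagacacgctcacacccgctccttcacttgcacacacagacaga
Each of the NR4A windows held the core 4 times. Klf2, Klf4 and Klf13 had 1 copy each. Among 32851 promoter windows of this length 17.8% held it at least once, and 0.137% held it 4 times or more. The NR4A windows had 63.6% to 80% G and C, against a median of 52.4% over all windows. The comparison was not matched for this. In Nr4a1 all 4 copies were on the opposite strand, the nearest one ending 36 bases before the start, whereas Nr4a2 and Nr4a3 carried copies on both strands. The complete palindrome TGACGTCA, which contains the core on both strands and was present in 1.55% of all windows, was in none of the 8 members. Nor did any of them hold AAAGGTCA, the NBRE to which NR4A monomers bind and which 1.34% of windows contained. These matches describe the letters of the windows, and binding was not measured.

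Nr4a1 (Nur77) gave a signal of 790.6 ± 79.1 with NSD and 554.6 ± 55.5 with HSD, each from 1 spot. The log2 fold change was -0.40 with an error of 0.20, and it stayed between -0.46 and -0.30 under 7 other ways of correcting or scaling the arrays. The change exceeded that of 64.5% of all genes in size. Among the 1455 genes of like signal, within 0.5 log2 units of its own mean, the median size of change was 0.25 and 14.6% were past 1.5-fold, so Nr4a1 differed by more than most genes of its brightness without reaching the threshold. In the authors' normalized log2 values it stood at 9.64 with NSD and 9.18 with HSD.

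Nr4a2 (Nurr1), which is required for midbrain dopaminergic neurons and is also induced in activated macrophages, was near background. Its brighter probe read 13.93 ± 1.68 with NSD and 11.28 ± 1.44 with HSD, a log2 fold change of -0.19 with an error of 0.25. Its dimmer probe read 6.598 ± 1.2 and 6.418 ± 1.16, a log2 fold change of 0.07 with an error of 0.37. The probes of the gene thus pointed in opposite directions, each by less than its error. Neither sign was stable: the brighter probe gave 0.11 after normexp background correction, and the dimmer one -0.04 after quantile normalization and -0.06 after cyclic loess. No direction can be given for Nr4a2.

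Nr4a3 (Nor1) was printed on 10 spots per array, and none of the 10 was well above background on either. The spots ranged from 0.931 to 1.25 with a median of 1.07 for NSD and from 0.914 to 3.09 with a median of 1.11 for HSD, where the lowest signals called well above background were 4.61 and 4.39. The ranges of the arrays overlapped, and no fold change was computed. In the authors' table Nr4a3 sat at the lowest value of 2.32 on both arrays. The family was therefore represented in these cells by Nr4a1 alone at a signal far from background, and what the array resolves of Nr4a3 is an upper limit.

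**Figure D2:**
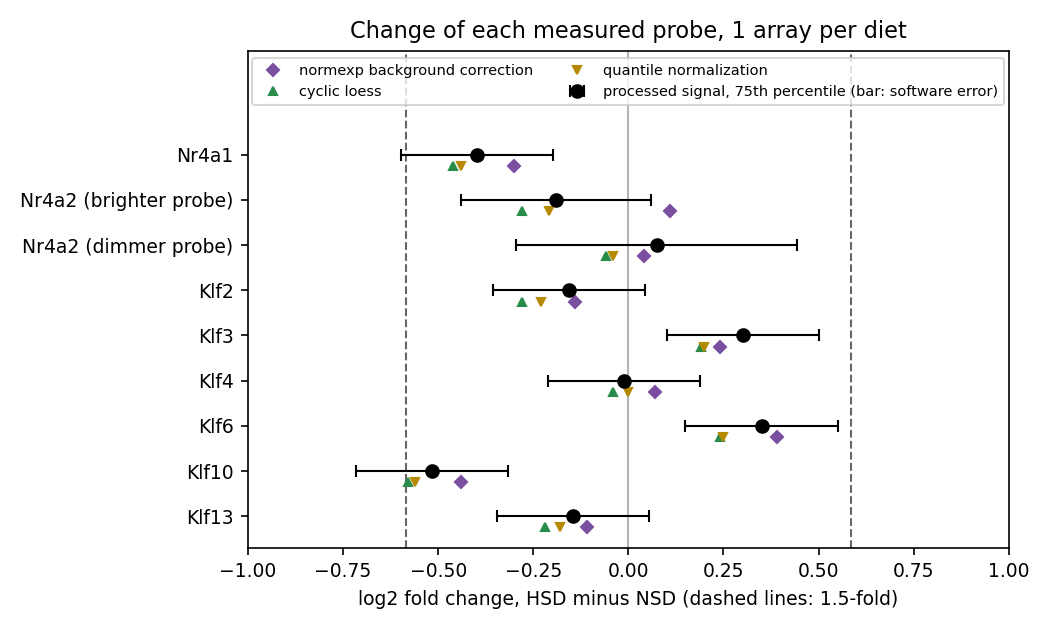
Log2 fold change (HSD minus NSD) of each measured member probe. Black circles are the processed signals scaled on the 75th percentile with the combined software error as bars, coloured marks are other corrections or scalings, and dashed lines mark 1.5-fold. Klf10 comes nearest to the line, and only the Nr4a2 probes and Klf4 have marks on both sides of 0 or at 0.

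Among the KLFs, Klf10 changed most. KLF10, also known as TIEG1, is induced early by TGF-β and represses transcription of its targets, among them the inhibitory Smad7. Its signal was 962.7 ± 96.3 with NSD and 621.9 ± 62.2 with HSD, and the log2 fold change of -0.52 was more than 2 software errors from 0. The fold was 1.43, and it ran from 1.36 after normexp correction to 1.5 after cyclic loess, where the unrounded log2 value of -0.584 stayed just short of the threshold of 0.585 in size. The difference was larger than that of 75.2% of all genes, while 14.7% of the 1423 genes of like signal were past 1.5-fold. Klf10 and Nr4a1 were thus the members with the lowest HSD to NSD ratios, 0.646 and 0.701 before any scaling.

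Klf6 and Klf3 lay on the other side. KLF6 promotes inflammatory gene expression in macrophages, and its signal was 7328 ± 733 with NSD and 8629 ± 863 with HSD, a log2 fold change of 0.35 with an error of 0.20. Under the other settings it lay between 0.24 and 0.39. KLF3 is a repressor that recruits C-terminal binding proteins to CACCC sequences. Its signal was 6558 ± 656 with NSD and 7461 ± 746 with HSD, a log2 fold change of 0.30 that lay between 0.19 and 0.31 under the other settings. Both were higher with HSD under every setting tried. Of all genes, 59% differed by less than Klf6 and 52.8% by less than Klf3.

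The promoter of Klf3 is shown because KLFs regulate one another's genes through CACCC boxes, and this window held most copies among the members. It lies at chr5:64803271-64803520 on the plus strand of GRCm38.p6, and capitals mark CCACCC on either strand.
Klf3: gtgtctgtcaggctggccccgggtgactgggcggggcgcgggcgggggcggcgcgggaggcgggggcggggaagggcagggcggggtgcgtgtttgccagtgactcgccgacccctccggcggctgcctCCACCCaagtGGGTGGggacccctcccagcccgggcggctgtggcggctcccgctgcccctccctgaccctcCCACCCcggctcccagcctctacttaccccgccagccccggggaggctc
The box occurred 3 times, compared with at least 1 copy in 28.1% and at least 3 copies in 1.78% of all windows. Klf2, Klf13 and Nr4a3 had 1 copy each, and Klf4, Klf6, Nr4a1 and Nr4a2 had none. All 8 windows contained GGGCGG, the GC box also recognised by SP factors, from 1 copy in Klf6 and Nr4a3 to 6 in Klf3, whereas 32.7% of all windows did. The windows of the members had 63.6% to 80% G and C, against a median of 52.4% over all windows, and short GC-rich words are more frequent in such sequence. In Klf13 a CACCC box and a GC box overlapped.

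Klf2, a factor of lymphocyte quiescence and of the endothelial response to flow that also restrains monocyte activation, gave 11945 ± 1195 with NSD and 9907 ± 991 with HSD. Its log2 fold change of -0.16 was smaller than its error of 0.20 and lay between -0.28 and -0.14 under the other settings. Klf4, which drives monocyte differentiation and alternative activation of macrophages, gave 188.7 ± 18.9 and 172.9 ± 17.3. Its log2 fold change was -0.01, smaller than that of all but 2.03% of genes, and it reached -0.05 and 0.07 at its extremes. Klf13, known for late induction of Ccl5 in T cells, gave 1265 ± 127 and 1057 ± 106, a log2 fold change of -0.15 that was also within its error. With 1 array per diet no difference between the diets could be tested, whatever its size.

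**Figure D3:**
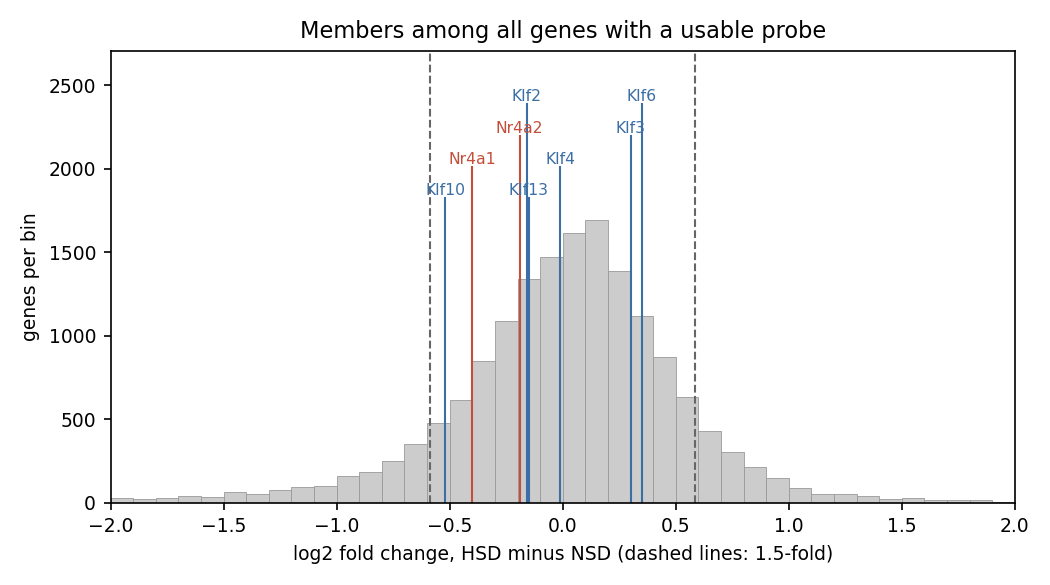
Distribution of the log2 fold change (HSD minus NSD) over all genes detected above background by either array (grey bars, genes per bin, axis cut at 2 on either side), with each measured NR4A (red) and KLF (blue) member as a line whose height has no meaning. Dashed lines mark 1.5-fold, and every member lies between them.

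The relatives of the members on the same arrays were then counted from lists that cover the rest of both pathways. All 11 other KLF genes were measurable. With HSD 4 of them passed the 1.5-fold threshold on the high side and 1 on the low side, and their median log2 fold change was 0.32. Klf5, a factor of proliferating cells, went from 485 with NSD to 870 with HSD (log2 fold change 0.96). Klf11, the closest relative of Klf10, went from 42.4 to 65.1 (0.73), and Klf16 from 75.7 to 111 (0.66). Klf15, a glucocorticoid-induced metabolic regulator, went from 29.9 to 12.7 (-1.12). These counts depended on the setting, with 1 to 4 higher and 0 to 3 lower, and after normexp correction Klf11 stood at 0.41, Klf16 at 0.50 and Klf15 at -0.20, while Klf5 kept 0.94. Klf10 and Klf11 thus had opposite signs, which no test could compare.

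The SP factors share the GC box with the KLFs. Of 9 listed, 6 were measurable, with a median of 0.30. Sp1 was just past the threshold (1671 to 2334, 0.60) and Sp6 just past it on the low side (40.6 to 24.5, -0.61). Sp4 (0.37) and Sp8 (-0.51) remained below it. By setting, 0 to 2 SP genes were past the threshold on the high side and 0 or 1 on the low side. Cofactors of the KLFs, 10 genes, had a median of 0.11, with 2 genes past 1.5-fold higher and 1 lower. These were the acetyltransferases Ep300 (1246 to 1882, 0.71) and Kat2b (257 to 376, 0.66), and the ubiquitin ligase Wwp1 (-0.95), whose other probe gave 0.06. After normexp correction Wwp1 was at -0.17 and Kat2b at 0.58, which left 1 gene past the threshold on the high side and 0 on the low side. The corepressor Sin3a was at 0.22.

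NR4A1 can pair with retinoid X receptors, and none of the 3 genes of these receptors was past 1.5-fold by its brightest probe. Rxra was at -0.13, although its other probe read 34.3 with NSD and 14.4 with HSD (-1.14), past the threshold. Rxrb was at -0.19 and Rxrg at 0.10, with a median of -0.13 over the genes and at most 1 past the threshold on the low side under another setting. Of 15 regulators of NR4A transcription, among them CREB, MEF2 and class II deacetylases, 2 passed the threshold on the high side and none on the low side, with a median of 0.25. Creb1 went from 91.2 to 165 (0.97), although its other probe gave 0.25, and Hdac4, which holds MEF2 targets silent, from 1264 to 1803 (0.63). Crtc2, the CREB coactivator, was at 0.42. Mef2a was at -0.42 with its brightest probe and at 0.88 with another.

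**Figure D4:**
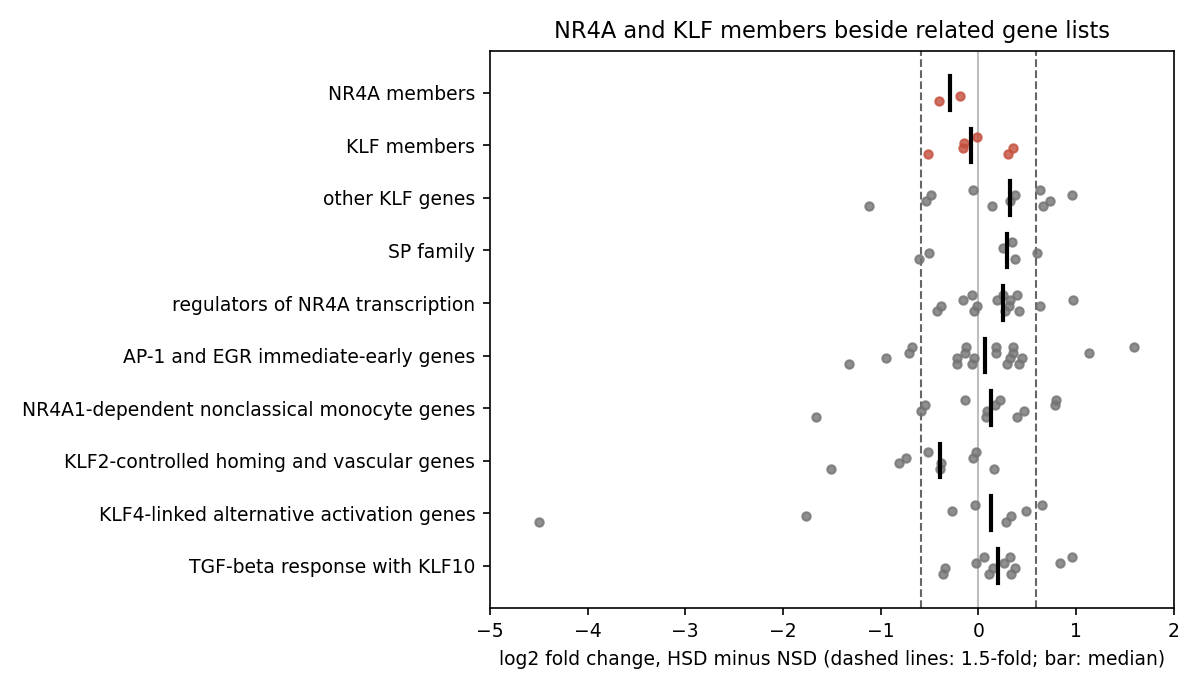
Log2 fold change (HSD minus NSD) of each measurable gene of the NR4A and KLF members (red) and of related lists (grey), with the median of each list as a vertical bar and dashed lines at 1.5-fold. The 8 measured members sit inside the dashed lines, and each related list drawn has at least 1 gene outside them. Of all genes 20.2% were past 1.5-fold in either direction, and a longer list is more likely to hold such a gene. The retinoid X receptors and the KLF cofactors are not drawn, and the 3 receptor genes lay inside the lines.

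Immediate-early genes answer to much the same signals as the NR4A genes. The list named for the AP-1 and EGR families also held genes of neither, among them Ier2, Ier3, Ier5, Btg2, Dusp1, Zfp36, Srf and Myc. All 20 listed were well above background on both arrays. With HSD 2 passed the threshold on the high side and 4 on the low side, around a median of 0.07. Atf3, a stress-induced repressor, went from 587 to 217 (-1.32) and Fos from 5514 to 2633 (-0.95). Egr1 (773 to 437, -0.71) and Junb (98.5 to 56.6, -0.68) were the others on the low side, named after their values were seen. Ier3, an NF-κB target that limits cell death, went from 848 to 2364 (1.59) and Maff from 37.4 to 75.8 (1.13). After normexp correction Junb was at -0.36 and Maff at 0.53, below the threshold. Genes of this class thus lay on both sides, with Nr4a1 between them at -0.40. Tissue digestion and sorting can induce the same class of genes. Of 23 measured genes of a dissociation response, 3 passed the threshold on the high side and 4 on the low side (median 0.15). Many of the 23 were also in the immediate-early list, including all 4 on the low side, so the lists are not separate results. The largest differences of the dissociation list were again those of Ier3, Atf3 and Fos, together with Socs3 (1515 to 4177, 1.58). The part of dissociation in the values of Nr4a1 and Klf10 was not tested.

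Genes downstream of the members were counted in the same way. Of 12 genes of nonclassical monocytes, the subset that depends on Nr4a1, 8 were higher with HSD and 4 lower, with 2 past the threshold on either side and a median of 0.13. The fractalkine receptor Cx3cr1 (119 to 188, 0.78) and Treml4 (160 to 254, 0.79) were higher, and the scavenger receptor Cd36 (334 to 97.6, -1.66) and the integrin Itga4 (1722 to 1058, -0.59) were lower, the last just past the threshold and at -0.08 with its other probe. Of 7 measured genes listed for classical monocytes 4 were higher and 3 lower, with a median of 0.09. Ly6c2 had no named probe. Listed genes need not be particular to this subset, and Chil3 was also listed for alternative activation. Those past the threshold were Irf4 (0.78, or 0.51 after normexp correction), Chil3 (34255 to 49710, 0.65) and the chemokine receptor Ccr2 (259 to 139, -0.78).

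The 9 genes of homing and vessel function that KLF2 is known to control had a median of -0.39, and 8 of them were lower on the HSD array, 3 by 1.5-fold or more. The anticoagulant receptor Thbd went from 328 to 107 (-1.51), the semaphorin receptor Plxnd1 from 1420 to 746 (-0.81) and the chemokine receptor Cxcr3 from 86.5 to 47.9 (-0.74). Itgb7 was at -0.52. The median stayed between -0.52 and -0.27 under the other settings, with 2 to 4 genes past the threshold, and Cxcr3 was at -0.27 after normexp correction. Klf2 itself was at -0.16.

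Of 10 genes linked to KLF4 and alternative activation, 8 were measurable, with 1 past the threshold on the high side, 2 on the low side and a median of 0.13. The mannose receptor Mrc1 went from 134 with NSD to 5.49 with HSD (-4.50), close to background on the HSD array, and the value was -1.56 after normexp correction. The lipid receptor Pparg went from 86.5 to 23.5 (-1.76), or -0.76 after that correction. Chil3, already given, was on the high side, and Il4ra was at 0.49. Arg1 and Cd163 did not rise above background on either array. Klf4 itself was at -0.01. Of 12 genes of TGF-β signalling and its early response, in which Klf10 takes part, 2 passed the threshold on the high side and none on the low side, around a median of 0.20. Id1 went from 950 to 1707 (0.96) and Pmepa1 from 29.9 to 49.4 (0.84), which became 0.62 and 0.44 after normexp correction. Tgif1 was at 0.38 and Id3 at -0.36. Smad7, a direct target of KLF10 repression and named after its value was seen, read 719 on both arrays, 0.11 after scaling.

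The label of the cells was checked against marker genes, since several members are abundant in other cells. Of 12 monocyte and macrophage markers 10 had a named probe, without Ly6c2 and Cd68, and all 10 were well above background with NSD and 9 with HSD. Their summed signal was 58336 with NSD and 52818 with HSD, and 5 of them passed the threshold on the low side and 1 on the high side (median -0.66). Itgam, the CD11b chain, was at 0.09 and Csf1r at -0.37, whereas Fcgr1 went from 305 to 21.9 (-3.68) and Mertk from 95.9 to 15.4 (-2.52). Cd14 was on the other side at 0.82, and Lyz2 at 0.19. The list was thus not uniform, and 4 to 6 of its genes were past the threshold on the low side under the other settings.

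All 11 neutrophil markers with a named probe were well above background on both arrays, with summed signals of 375243 and 362104 and a median of 0.07. S100a8 read 57914 with NSD and 56478 with HSD, the granule gene Ltf 51766 and 51993, and Mpo 3536 and 1723, the only one past 1.5-fold. Granulocyte markers were therefore far above background in the cells labelled M-MDSCs of both groups. The 6 B cell markers measured were all higher with HSD, from 0.30 to 0.55, none past 1.5-fold, with summed signals of 6263 and 7313. Of the T and NK cell markers 9 were measurable, none was past 1.5-fold higher and 2, Cd3e and Il7r, were lower, with summed signals of 3356 and 3222. Endothelial markers, of interest for Klf2 and Klf4, summed to 564 and 577, with 8 of 10 measurable, none past 1.5-fold by its brightest probe, although another probe of Kdr read 124 with NSD and 20.4 with HSD (-2.49). Emcn and Tie1 were not above background on either array, Cdh5 was above it with NSD alone and Tek with HSD alone.

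Dendritic cell markers summed to 14605 and 14005, with 1 of 7 higher and 2 lower by 1.5-fold, and none past it after normexp correction. Most of this sum came from 1 probe of Siglech, which read 13705 with NSD and 13214 with HSD. The other Siglech probe read 30.7 and 21.3. Fibroblast markers summed to 393 and 351, with 1 of 7 higher and 3 lower, and again none after that correction, where the median went from -0.55 to -0.03. Epithelial carcinoma markers summed to 183 and 136, with 4 of 8 higher and 1 lower, of which 0 and 1 were left after the correction. The lower sum came with Ovol1, which read 59.9 with NSD and 2.76 with HSD. Erythroid markers summed to 11211 and 11522, with 1 of 7 lower and none after the correction. Most of that sum was Hba-a1, at 10273 with NSD and 10843 with HSD. The part of any of these cells in the values of the NR4A and KLF genes was not tested.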

How the data were processed

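RNA of tumour M-MDSCs was measured on Agilent mouse arrays, 1 array for NSD and 1 for HSD, each from cells mixed over the mice of a group. The authors deposited scanner output made with Feature Extraction 11.0.1.1, whose processed signals are intensities corrected for background but not normalized between arrays. A table of log2 values that the authors normalized in GeneSpring and deposited was used as an alternative. Its columns have the same median, 4.606, and their sorted values above the floor (2.323 with NSD, 2.322 with HSD) differ by at most 0.00044. The sources used here do not name the normalization, but columns with matching sorted values are what quantile normalization gives. The table is on a log2 scale with no centring of genes. It was close to the quantile alternative for the members, with Nr4a1 at -0.45 against -0.44 and Klf3 at 0.20 in both. These alternatives are therefore not independent of each other.

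Control spots and outlier-flagged spots were left out, spots of a probe were averaged on the log2 scale, and the 75th percentile over non-control probes was subtracted per array. A probe was measurable when at least 50% of its spots were well above background on at least 1 array. A probe below that on 1 array gave only a lower bound on the fold, taken against the higher of its own signal and the lowest signal well above background there, and list counts include such bounds. Transcript accessions named 27223 of 39413 probes through RefSeq (GRCm38.p6), and the array's own annotation is of an older build, so no probe coordinates are given. A gene in a list is represented by its brightest measurable probe. The text names all members and, of each related list, up to 4 genes with the largest change among those above background on both arrays. Others were named after their values were seen, and some that this rule names are not reported here. The members and lists were chosen with earlier results of these data known. Promoter words were searched on both strands of the 250 bases before each RefSeq start, in 32851 windows.

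With 1 array per diet no test was possible, and the precision of every value is limited by that number. Alternatives were normexp background correction (offset 50) of median spot intensities, also deposited by the authors, quantile, cyclic loess, median and another percentile scaling, the deposited log2 values, flagged spots kept, other filters on dim probes, a 2-fold threshold and the median over probes. Scripts were tested on simulated data. Python 3.11.15, numpy 2.4.6, pandas 2.3.3, matplotlib 3.10.9, R 4.3.3 and limma 3.58.1 were used.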

Additional observations from a re-analysis of the deposited data

How the results depend on the processing

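The counts of members past the threshold were 0 in either direction under the main setting and under all 11 alternatives. Some alternatives could hardly give another result. The 2-fold threshold, the filter for background on both arrays and the median over probes could not raise a count of 0. Keeping flagged spots left the spots of the members as they were, since none was flagged. Over all genes, 3291 passed 1.5-fold with the main setting, 1280 after normexp correction, 5115 without a filter on dim probes and 1109 at 2-fold. Nr4a1, Klf2, Klf3, Klf6, Klf10 and Klf13 kept their sign under the 7 alternatives that change values, whereas both Nr4a2 probes and Klf4 did not. Members higher and lower with HSD numbered 2 and 6 with the main setting and 4 and 4 after normexp correction. Normexp adds an offset, which draws dim signals together, and low signals such as those of Nr4a2 are where depth over background limits the values. No paired analysis was possible because each diet has 1 array.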
